A study of Gallus gallus with 2 samples.

Results

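Small leucine-rich proteoglycans (SLRPs) are secreted proteins with a curved core of leucine-rich repeats, most of which carry chondroitin, dermatan or keratan sulphate chains. They bind collagen fibrils, set how the fibrils assemble and how thick they grow, and hold growth factors of the TGF-β and BMP families in the matrix. In the testis such matrix is made mainly by peritubular and interstitial stromal cells rather than by germ cells. The 10 genes examined were chosen by name: DCN, BGN and ASPN of class I, LUM, FMOD, PRELP, KERA and OMD of class II, and EPYC and OGN of class III. Of these 10, 9 were found among the 26656 genes listed, and no row carries the name BGN. LUM, OGN, ASPN, FMOD and OMD had at least 20 reads over both libraries, EPYC and KERA had fewer, and DCN and PRELP were listed at 0.

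RNA-seq was done on cultured chicken cells labelled as spermatogenic stem cells (SSCs). They came from testes of embryos after 18.5 days of incubation, digested with collagenase and then trypsin and grown in DMEM with serum. The Blank library came from untreated cells and the shLSD1 library from cells transfected with a vector that interferes with LSD1 (KDM1A), a histone demethylase. Each group had 1 library and the labels name no vector control, so transfection and interference cannot be told apart and no difference below has a replicate check.

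The counted reads came to 8731455 in Blank and 8245826 in shLSD1. KDM1A was listed at 0 reads in each library, so the interference could not be checked in these counts. Ratios below are log2 ratios of shLSD1 to Blank of reads over these totals, with a prior count of 0.5 and a Clopper-Pearson 95% interval that covers counting error only and compares these libraries, not the treatments. Fewer cells of a type and less RNA per cell cannot be told apart. Coordinates are those in the deposited tables, which name no genome build.

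LUM and OGN were abundant and slightly lower in shLSD1, and ASPN was at a lower level and higher in shLSD1. A model that the authors assembled over the DCN gene held more reads than any SLRP gene listed by name and was also lower in shLSD1. FMOD was low, and OMD, EPYC and KERA were near the limit of detection. The levels thus spanned a wide range, from LUM at 338 FPKM (reads per kilobase of gene length, scaled to the library total) to KERA at 0.0471 in Blank.

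**Figure D1:**
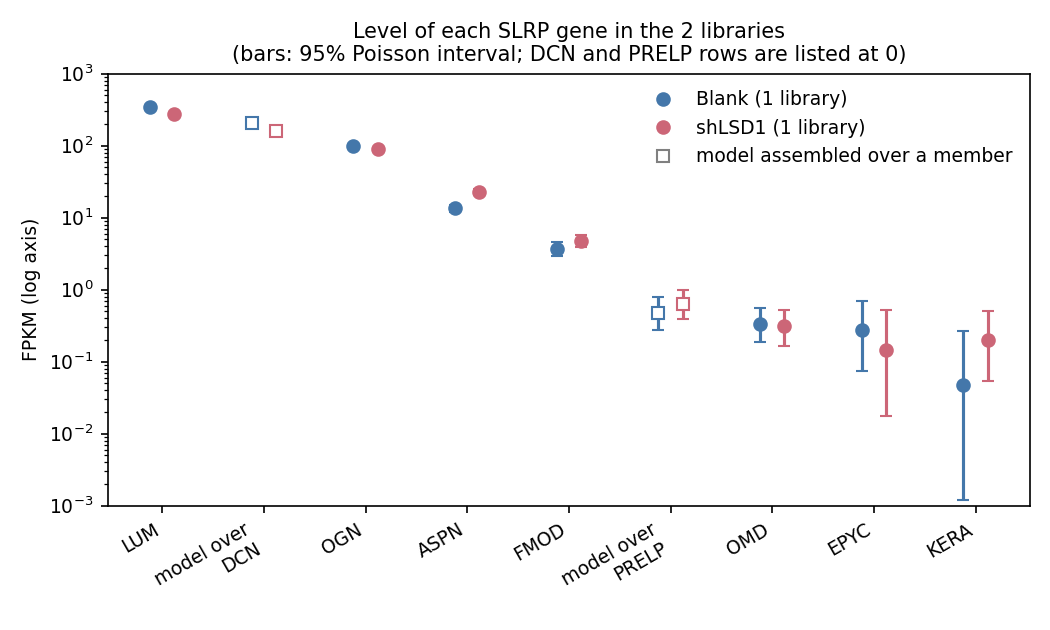
Level of each SLRP gene in FPKM on a log axis, in Blank (blue) and shLSD1 (red), 1 library each, with exact 95% Poisson intervals of the reads; open squares are models assembled over DCN and PRELP, whose own rows are at 0. LUM stands highest at 338 FPKM in Blank and 277 in shLSD1, and the 2 libraries keep the same order down to OMD.

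LUM encodes lumican, a keratan sulphate proteoglycan that limits the thickness of collagen fibrils. The gene (ENSGALG00000011271) lies on the minus strand at chr1:43860883-43872867. It had 6098 reads in Blank against 4710 in shLSD1, or 338 FPKM (exact Poisson 95% interval 330 to 347) and 277 FPKM (269 to 285). It ranked 219 by FPKM among all listed genes in Blank and 283 in shLSD1. The log2 ratio was -0.29 (-0.35 to -0.23), which is 18.2% lower in shLSD1. The Poisson intervals of the 2 libraries did not overlap, but the share of all genes with such intervals was not computed. By the interval of the ratio, a different measure, 22.2% of 6679 genes with at least 200 reads lay below 0. LUM alone took 49.9% of all reads on the members in Blank and 46.6% in shLSD1.

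OGN encodes osteoglycin, also called mimecan, a class III member that acts on collagen fibril growth. The gene (ENSGALG00000026736) lies on the plus strand at chr12:3424003-3438509. It had 5716 reads in Blank against 4813 in shLSD1, close to the read number of LUM, but its listed length of 6511 bases against 2051 for LUM puts its level per length lower. The level was 99.9 FPKM (97.3 to 103) in Blank and 89.2 FPKM (86.7 to 91.8) in shLSD1, so LUM was 3.39 times OGN in Blank and 3.11 times in shLSD1. The log2 ratio of OGN was -0.17 (-0.22 to -0.11), or 10.8% lower in shLSD1. Its library intervals did not overlap either, again without a share over all genes to set beside it. The decrease of LUM exceeded that of OGN by a small amount, with a difference of -0.12 on the log2 scale (exact 95% interval of the odds ratio -0.20 to -0.05).

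DCN encodes decorin, the class I proteoglycan that coats collagen fibrils and binds TGF-β. Its row (ENSGALG00000011274, minus strand, chr1:43894096-43932320) held 0 reads in each library. Taken as a one-sided limit, a count of 0 allows up to 3 reads, or 0.344 CPM (counts scaled to a common library size) in Blank and 0.364 in shLSD1, and the two-sided exact Poisson interval used for the levels ends at 3.69 reads. That limit applies to the row and not to the locus, since a model the authors assembled on the same strand, at chr1:43889874-43932528, covers the whole gene and held 9908 reads in Blank against 7199 in shLSD1. The gene fills 89.6% of the span of the model. The tables annotate that model with a leucine-rich repeat N-terminal domain and leucine-rich repeats, and give it no gene name.

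The model over DCN stood at 204 FPKM (200.2 to 208) in Blank and 157 FPKM (154 to 161) in shLSD1, between LUM and OGN in both libraries. LUM was 1.66 times the model in Blank and 1.76 times in shLSD1, and the model was 2.04 and 1.76 times OGN. By reads over both libraries it ranked 124 among all listed features. Its log2 ratio was -0.38 (-0.42 to -0.33), or 23.1% lower in shLSD1. This ratio was lower than that of LUM by 0.09 (difference -0.09, interval -0.16 to -0.02) and lower than that of OGN (difference -0.21, interval -0.28 to -0.14).

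ASPN encodes asporin, a class I member that binds collagen and TGF-β. The row of this name (ENSGALG00000004722) lies on the plus strand at chr12:3382894-3397668. It had 294 reads in Blank against 469 in shLSD1, or 13.4 FPKM (11.95 to 15.1) and 22.8 FPKM (20.7 to 24.9). Its place by FPKM moved from 3811 in Blank to 2759 in shLSD1. The log2 ratio was 0.76 (0.54 to 0.97), a level 1.69 times as high in shLSD1 as in Blank. ASPN was the only named member higher in shLSD1 with an interval that left out 0, and its ratio differed from that of OGN by 0.92 (0.70 to 1.14) and from that of LUM by 1.05 (0.83 to 1.27).

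The name of the ASPN row is uncertain. In the RefSeq gene table of assembly GRCg7b, used here for names and gene order only, the gene between ECM2 and OMD is named BGN (biglycan, the class I member nearest to decorin), and 0 entries are named ASPN. The deposited tables give the order ECM2, ASPN, OMD and OGN and hold no BGN. In human and mouse ASPN lies in this cluster and BGN does not. Which of these class I genes the 294 and 469 reads belong to was not tested, because no sequence was at hand.

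FMOD encodes fibromodulin, a class II keratan sulphate proteoglycan that shares collagen binding with lumican. The gene (ENSGALG00000003546) lies on the minus strand at chr26:5167693-5174255. It had 84 reads in Blank against 102 in shLSD1, or 3.66 FPKM (2.92 to 4.53) and 4.72 FPKM (3.85 to 5.73), and these intervals overlap. The log2 ratio was 0.36 (-0.07 to 0.80), so no difference was detectable at this depth. Its ratio differed from that of LUM by 0.65 (0.22 to 1.09). With the reads of a long same-strand model that spans FMOD added, the log2 ratio was 0.14. FMOD fills only 4.65% of the span of that model, so which gene those added reads belong to is not known.

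PRELP encodes a class II member with a basic end that binds heparan sulphate. Its row (ENSGALG00000003551, plus strand, chr26:5204578-5209509) held 0 reads in each library. An assembled model on the same strand covers the whole gene and held 16 reads in Blank against 20 in shLSD1, with a log2 ratio of 0.40 (-0.62 to 1.45). As at DCN, the named row was empty and the model was not, but at PRELP the model too was low, at 0.479 FPKM in Blank and 0.635 in shLSD1.

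OMD encodes osteomodulin, also called osteoadherin, a keratan sulphate proteoglycan known from bone. The gene (ENSGALG00000026080, plus strand, chr12:3409133-3419427) had 15 reads in Blank against 13 in shLSD1, or 0.335 FPKM (0.188 to 0.553) and 0.308 FPKM (0.164 to 0.527). The log2 ratio was -0.12 (-1.32 to 1.05), an interval that reaches past 2-fold in each direction.

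EPYC (epiphycan, known from growth plate cartilage) and KERA (keratocan, known from the cornea) were at or near the floor. EPYC (ENSGALG00000011269, minus strand, chr1:43798643-43821219) had 4 reads in Blank against 2 in shLSD1, with a log2 ratio of -0.77 (-4.38 to 1.89). KERA (ENSGALG00000011270, minus strand, chr1:43843145-43851618) had 1 read in Blank and 4 in shLSD1, with a log2 ratio of 1.67 (-1.25 to 7.70). Both intervals include 0, and no direction can be read from so few reads.

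**Figure D2:**
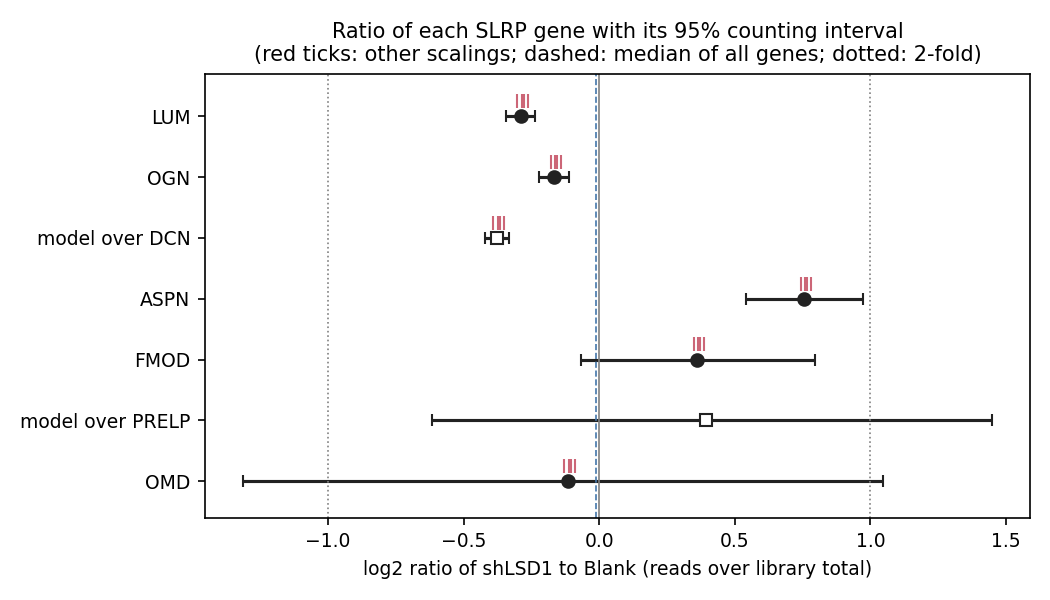
Log2 ratio of shLSD1 to Blank with its Clopper-Pearson 95% interval for the 5 members with at least 20 reads (filled) and for the models over DCN and PRELP (open); red ticks are the ratios under 4 other scalings, the dashed line is the median of all genes and the dotted lines mark 2-fold. LUM, OGN and the model over DCN lie below 0, ASPN lies above 0 at 0.76, and the intervals of FMOD, OMD and the model over PRELP include 0.

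Of the 5 members with at least 20 reads, 0 passed 2-fold upwards in shLSD1 and 0 passed it downwards. Over all 12081 genes with at least 20 reads, 2.21% passed 2-fold upwards and 1.82% downwards. ASPN passed 1.5-fold, as did 7.04% of all these genes upwards, while no member was 1.5-fold lower, against 6.38% of all. When every gene with at least 1 read was counted, KERA was the member past 2-fold upwards on its 5 reads, where 11.3% of all genes passed upwards and 9.92% downwards.

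The interval of the log2 ratio lay above 0 for 1 of the 5 members (ASPN) and below 0 for 2 (LUM and OGN). Over all genes with at least 20 reads the shares were 12.9% above and 15.4% below. LUM, OGN and ASPN were the members with at least 200 reads, and at that depth 17.1% of 6679 genes lay above and 22.2% below. Since deep genes have narrow intervals, an interval without 0 is common among them. By size of the ratio, 41 of these 6679 genes (0.614%) had a higher ratio than ASPN, 12.3% had a lower ratio than LUM, 26.4% a lower ratio than OGN and 6.66% a lower ratio than the model over DCN. The median log2 ratio of the 5 members was -0.12, which is the ratio of OMD with its 28 reads, and that of all genes with at least 20 reads was -0.01. It was -0.03 from FPKM with a pseudocount of 1, -0.07 with a prior count of 5 and -0.17 (the ratio of OGN) with at least 200 reads. Of all 12081 genes, 5842 were higher and 6239 lower.

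**Figure D3:**
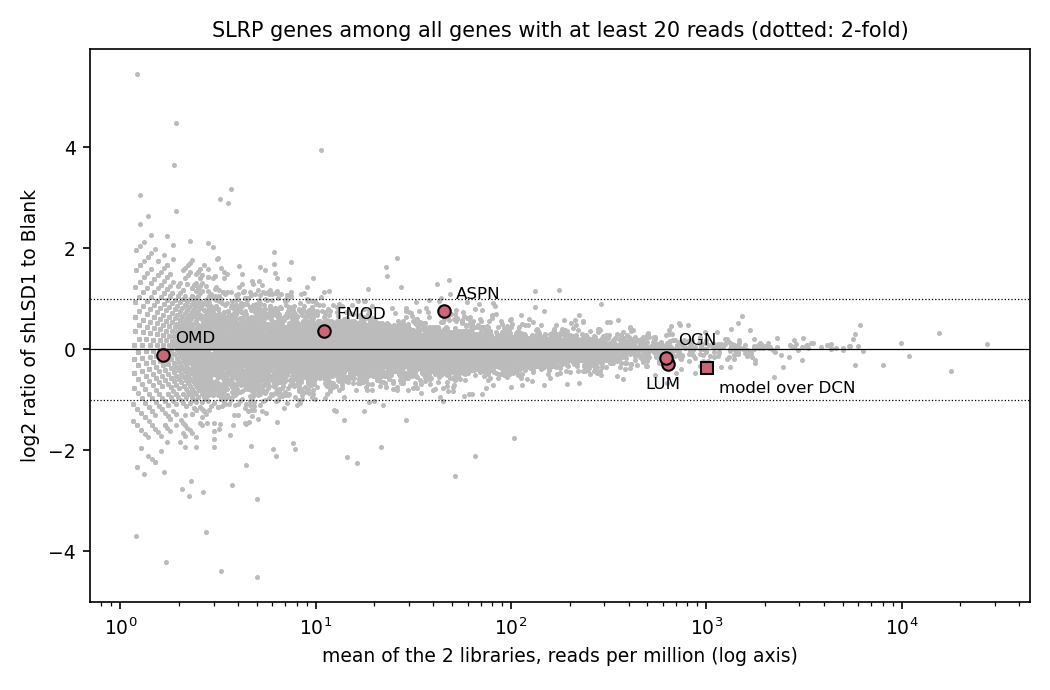
Log2 ratio of shLSD1 to Blank against the mean level of the 2 libraries in CPM (log axis) for all 12081 genes with at least 20 reads (grey), with the SLRP members as red circles and the model over DCN as a red square. ASPN lies near the upper edge of genes of its level, and none of the members reaches the dotted 2-fold lines. LUM and the model over DCN lie below most genes but not at the edge. Of genes with at least 200 reads, 12.3% had a lower ratio than LUM and 6.66% a lower ratio than the model.

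Together the 9 listed members held 12212 reads in Blank against 10113 in shLSD1, or 0.140% of all counted reads (Wilson 95% interval 0.137% to 0.142%) and 0.123% (0.1203% to 0.125%). Without LUM the shares were 0.0700% and 0.0655%. With the model over DCN added, an alternative chosen after the data were seen, they were 0.253% and 0.210%. The members' share was lower in shLSD1 in each of these sums, and ASPN went from 2.41% of the members' reads in Blank to 4.64% in shLSD1.

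The members lie in 3 clusters, a feature that the choice by name did not use. EPYC, KERA, LUM and DCN span 134 kb of chromosome 1 on the minus strand, with 9.26 kb between KERA and LUM and 21.2 kb between LUM and DCN. No other named gene is listed within 100 kb of this cluster. Levels inside it were far apart, since LUM was 7180 times KERA by FPKM in Blank and 1386 times in shLSD1, on the few reads of KERA. LUM and the model over DCN, its neighbour, were the most abundant SLRP features and both were lower in shLSD1.

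ASPN, OMD and OGN span 55.6 kb of chromosome 12 on the plus strand, with 11.5 kb between ASPN and OMD and 4.58 kb between OMD and OGN. OGN was 298 times OMD in Blank and 289 times in shLSD1. Within this cluster ASPN was higher in shLSD1 and OGN lower, with OMD undetermined. CENPP, a centromere protein gene, runs over all 3 on the opposite strand and had 107 reads in Blank against 116 in shLSD1, giving a log2 ratio of 0.20 (-0.19 to 0.59). The labels name a TruSeq kit that does not mark strand, so reads of CENPP and of these members cannot be told apart by strand where exons overlap, which bears most on the 15 and 13 reads of OMD.

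FMOD and PRELP span 41.8 kb of chromosome 26, on opposite strands, with OPTC (opticin, a class III member known from the eye) 2.0 kb beyond PRELP. OPTC had 67 reads in Blank against 104 in shLSD1, giving a log2 ratio of 0.71 (0.26 to 1.18). An assembled model on the strand opposite to FMOD covers that gene and had 43 reads in Blank against 75 in shLSD1, with a log2 ratio of 0.88 (0.33 to 1.46), so the reads of FMOD are uncertain. A further same-strand model over FMOD had 65 reads in Blank against 53 in shLSD1. FMOD fills only 4.65% of the span of that model, which also runs over CCND3 on the same strand.

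**Figure D4:**
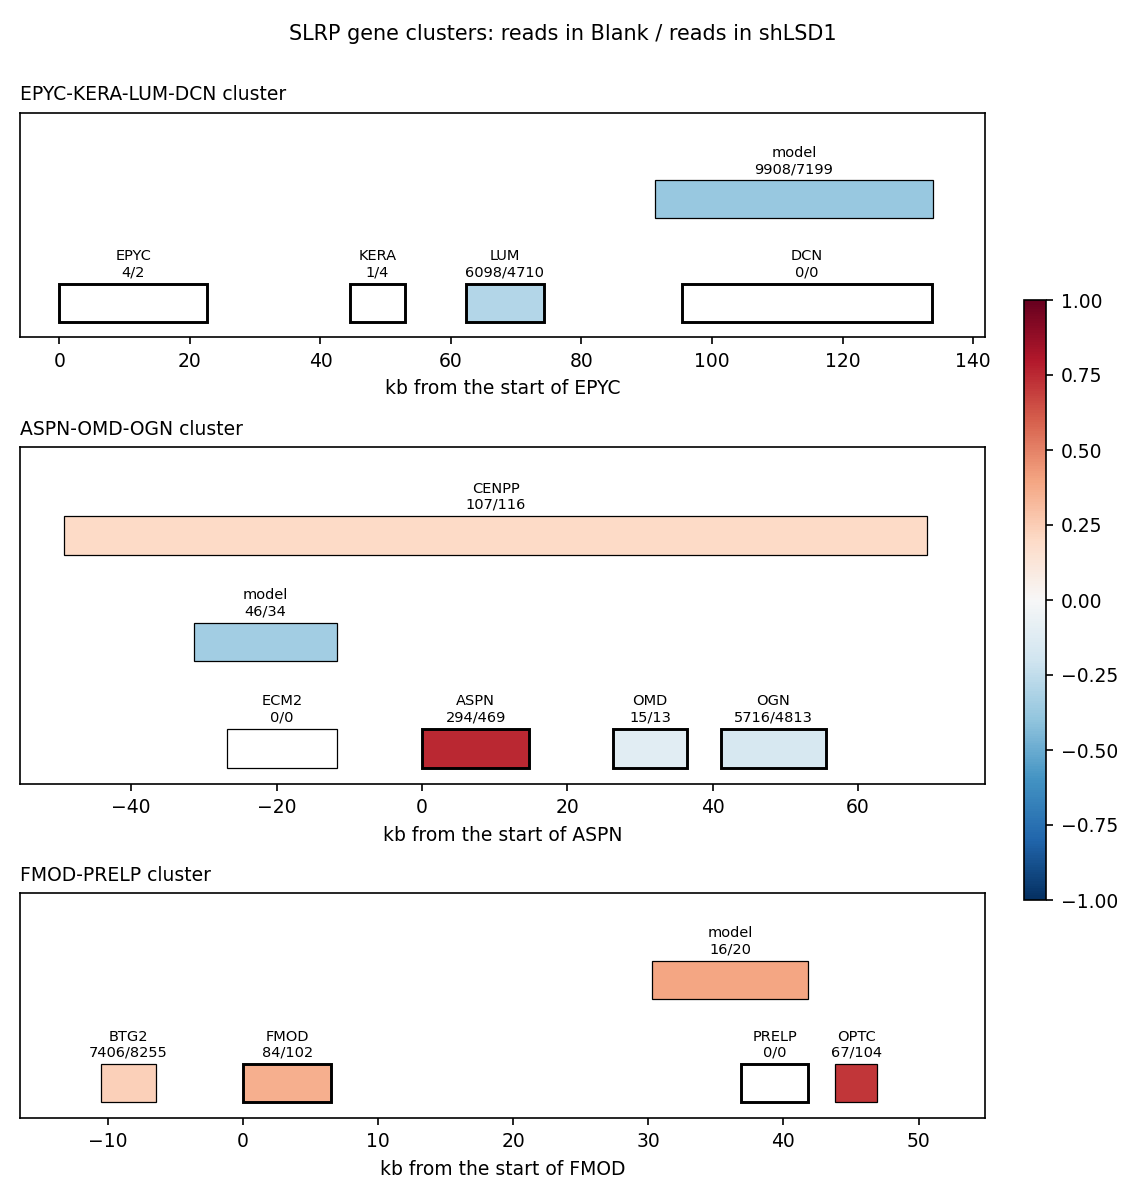
The 3 SLRP clusters to scale in kb from the start of the first member, with boxes for genes (members outlined in bold), assembled models drawn in a row above the genes they cover, CENPP on top, reads in Blank and shLSD1 over each box, and colour for the log2 ratio where a box has at least 20 reads. The assembled models over FMOD are not drawn. LUM and the model over DCN are blue (lower in shLSD1), and ASPN, with 294 and 469 reads, is red.

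Among other SLRP genes and other genes with leucine-rich repeats, 5 of the 9 listed had at least 20 reads. Of these, 4 were higher and 1 lower in shLSD1. The intervals of 3 lay above 0, against 12.9% of all genes with at least 20 reads. The median log2 ratio was 0.71. PODN (podocan) had 46 reads in Blank against 117 in shLSD1, giving a log2 ratio of 1.42 (0.93 to 1.95), and was the gene of this list past 2-fold, as were 2.21% of all genes. LRRC17, with the most reads of the rows named in this list, had 230 against 225 reads. TSKU (tsukushi) was listed at 0, and a model over it, named after its values were seen, held 3005 against 2432 reads with a log2 ratio of -0.22 (-0.30 to -0.15), below 0 where the list median was above. TSKU fills only 6.42% of the span of that model. OPTC came next when ranked by reads, and CHAD (chondroadherin) had 59 against 93 reads, giving a log2 ratio of 0.73 (0.25 to 1.24). CHADL was the 1 lower gene, at 88 against 60 reads, with a log2 ratio of -0.47 (-0.97 to 0.02).

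Of 19 listed genes that build the linker, chondroitin sulphate and dermatan sulphate chains, 11 had at least 20 reads, with 7 higher and 4 lower, none past 2-fold, and a median of 0.06. CHST14, which sulphates dermatan sulphate of the kind found on decorin, had 2744 reads in Blank against 2748 in shLSD1. XYLT2, which adds the xylose that starts a chain, had 2369 against 2338 reads. DSE, the epimerase that turns chondroitin into dermatan sulphate, was listed at 0, and a model over it, named here after its values were seen, held 2644 against 2501 reads with a log2 ratio of 0.00 (-0.08 to 0.08). Of 9 listed genes for keratan sulphate, the chain of lumican and fibromodulin, CHST2 alone had at least 20 reads, with 844 in Blank and 650 in shLSD1 and a log2 ratio of -0.29 (-0.44 to -0.14). B3GNT7, next by reads, had 9 and 10. Models over genes of this list at 0 held 1124 against 941 reads (ST3GAL1), 413 against 422 (B4GALT1) and 183 against 144 (FUT8). The model over B3GNT2 held 59 against 22, a log2 ratio of -1.32 (-2.12 to -0.61). These models were named after their values were seen. ST3GAL1 fills only 33.4% of the span of its model and DSE 45.6%, so which gene those reads belong to is not known.

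Of 14 listed collagens and fibre proteins, the partners that SLRPs bind, 5 had at least 20 reads. Of these, 5 were higher and 0 lower, against 4 higher and 1 lower with DESeq2 size factors. The intervals of 2 lay above 0, against 12.9% of all genes with at least 20 reads. The median was 0.22, or 0.0702 from FPKM with a pseudocount of 1, 0.13 with at least 200 reads and 0.33 with no filter on reads. COL6A2, a chain of the collagen VI that binds decorin, had 25384 reads in Blank against 27856 in shLSD1, giving a log2 ratio of 0.22 (0.19 to 0.24). COL2A1, the fibrillar collagen of cartilage, had 2473 against 2341 reads, giving a log2 ratio of 0.003 (-0.08 to 0.09). COL3A1 was listed at 0, as DCN was, and the model over it, named after its values were seen, held 45913 against 50093 reads with a log2 ratio of 0.21 (0.19 to 0.23).

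Of 9 listed proteases known to cut SLRPs or related matrix, 6 had at least 20 reads, with 2 higher and 4 lower and a median of -0.05, or -0.18 with at least 200 reads and -0.02 with upper-quartile scaling. MMP9, a gelatinase, had 77327 reads in Blank against 59267 in shLSD1, giving a log2 ratio of -0.30 (-0.32 to -0.29). HTRA1, a serine protease, had 1753 against 1595 reads. ADAMTS5, an aggrecanase, had 143 against 318 reads, giving a log2 ratio of 1.23 (0.95 to 1.53). It was past 2-fold upwards, as were 2.21% of all genes with at least 20 reads. TLL1 went the other way, at 217 against 137 reads (log2 ratio -0.58, -0.90 to -0.27). Of 16 listed growth factors and receptors that SLRPs bind, 5 had at least 20 reads, with 1 higher and 4 lower. The median was -0.27, or -0.13 from FPKM with a pseudocount of 1. The intervals of 2 lay below 0, against 15.4% of all genes with at least 20 reads. TGFBR3 (betaglycan, a TGF-β co-receptor) had 958 against 748 reads, and ITGA2, a collagen receptor chain, 528 and 377, giving a log2 ratio of -0.40 (-0.60 to -0.21). Models over genes of this list at 0, named after their values were seen, went both ways. They held 3161 against 2482 reads over VEGFA (-0.27, -0.34 to -0.19) and 669 against 541 over TGFBR1 (-0.22, -0.39 to -0.06). The model over TGFBR2 held 143 against 197 (0.54, 0.23 to 0.87). Those over TGFB3, WISP1 and ITGB1 had intervals that include 0.

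Of 20 other matrix and cell-surface proteoglycans, 10 had at least 20 reads, with 6 higher and 4 lower and a median of 0.18. That median turned to -0.06 with at least 200 reads and was 0.08 with no filter. CSPG4 (NG2, known from pericytes) had 5398 reads in Blank against 7068 in shLSD1, giving a log2 ratio of 0.47 (0.42 to 0.52). GPC1, a glypican, had 5460 and 4245, giving a log2 ratio of -0.28 (-0.34 to -0.22), so these abundant proteoglycan genes stood on opposite sides of 0. ESM1 (endocan) had 25 against 61 reads, giving a log2 ratio of 1.35 (0.68 to 2.10), and was past 2-fold, as were 2.21% of all genes. Of 10 transcription factor genes tied to SLRP or tendon gene activity, 5 had at least 20 reads. Of these, 5 were higher (4 with DESeq2 size factors), with a median of 0.05, or 0.21 with no filter. The intervals of 2 lay above 0, against 12.9% of all genes with at least 20 reads. SMAD3 led with 2912 against 2777 reads (log2 ratio 0.01, -0.06 to 0.09), before EGR1 with 2541 and 2483 (0.05, -0.03 to 0.13).

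**Figure D5:**
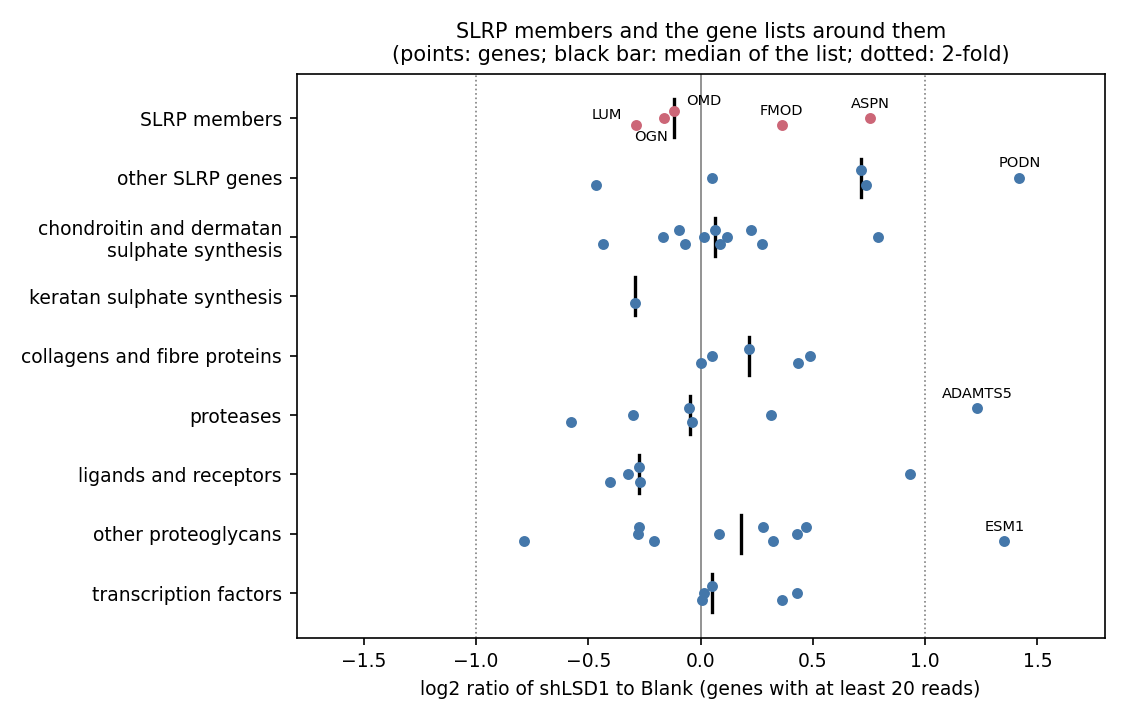
Log2 ratio of shLSD1 to Blank for each gene with at least 20 reads in the SLRP members (red) and in 8 lists of related genes (blue), with the list median as a black bar and 2-fold as dotted lines. The members run from LUM at -0.29 to ASPN at 0.76, and PODN, ADAMTS5 and ESM1 are the genes past 2-fold.

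Empty rows under filled models were not particular to DCN and PRELP. Among the 105 genes of these 8 lists, 41 were listed at 0, and for 35 of the 41 an assembled model on the same strand held reads. Counts and medians over the lists therefore leave out genes whose reads sit on models. Rows above 0 could lie under filled models too. COL5A1 had 3 reads over both libraries, and same-strand models over it held 17513. COL6A3, counted among the collagens with at least 20 reads, had 32 reads where models held 3257.

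Some markers of several testis cell types were present, and others were near the floor. Markers of germ cells, the labelled type, were low by named row, with a sum near the endothelial sum and above the macrophage sum. The sums below count named rows only and leave out reads on models, which could change their order. The summed level of the stroma list was 5083 CPM in Blank and 5076 in shLSD1, nearly all of it VIM with 43898 against 41286 reads, which many cell types express. Without VIM the named rows of the list, then led by TCF21, summed to 55.5 CPM in Blank and 69.2 in shLSD1. TCF21 had 447 against 543 reads. POSTN went the other way, at 20 against 1 reads (log2 ratio -3.69, -9.61 to -1.60). It was past 2-fold downwards, as were 1.82% of all genes with at least 20 reads. Same-strand models over POSTN held 685 reads over both libraries. Of the 10 genes of this list, 4 had at least 20 reads, and COL1A2, COL3A1, NR2F2, PDGFRA and THY1 were listed at 0 under models with reads. The models over COL1A2 (54 against 41), PDGFRA (34 against 26) and THY1 (8 against 7) held few reads. The model over COL3A1 held 45913 against 50093 reads, more than VIM, and that over NR2F2 held 937 against 826. The sum without VIM therefore leaves out most reads at the loci of this list. The peritubular smooth muscle list, led by MYLK and DES, summed to 541 CPM in Blank and 556 in shLSD1. MYLK, with 4122 against 3857 reads, held most of it. MYH11 had 3 and 0 reads, with 139 over both libraries on same-strand models, and TAGLN had 1 and 1. LMOD1 and PTCH1 were at 0 under models with 250 against 298 and 378 against 385 reads. The cartilage and tendon list, led by COL2A1 and MATN3, summed to 302 and 307. COL2A1 held most of it, while COL9A1 had 1 and 2 reads, COL10A1 6 and 5, and MATN1 0. The Sertoli list, led by CLDN11 and DMRT1, summed to 215 and 268. The Leydig list (CYP17A1, CYP11A1) summed to 82.3 and 66.0, the endothelial list (EGFL7, PECAM1) to 51.4 and 58.6 and the macrophage list (CSF1R, C1QA) to 31.8 and 33.1. In the endothelial list CDH5 was at 0 and VWF had 2 and 0 reads. Models outside the Sertoli sum held 2475 against 2248 reads over GATA4, 568 against 613 over WT1 and 191 against 153 over AMH. A model outside the Leydig sum held 521 against 427 reads over NR5A1. NR5A1 fills only 21.7% of the span of its model and WT1 41.8%, so which gene those reads belong to is not known. Of 15 germ cell genes 5 had at least 20 reads, and the list summed to 52.8 CPM in Blank and 64.3 in shLSD1. Its most abundant genes were higher in shLSD1, with ZBTB16 at 219 against 279 reads (log2 ratio 0.43, 0.17 to 0.69) and GFRA1 at 149 against 192 (0.45, 0.13 to 0.77). They held most reads of the list, so the sum mainly follows them. The other 3 of the 5 were lower, with intervals that include 0, and the list median was -0.44. These were DDX4 at 23 against 11 reads, TDRD1 at 16 against 11 and TDRD9 at 17 against 7. TDRD9 was past 2-fold downwards, as were 1.82% of all genes with at least 20 reads. The germ cell markers DDX4 and DAZL, the latter at 8 and 5 reads, were low in both libraries. Same-strand models over ITGA6 and SYCP3 held 2420 and 559 reads over both libraries and lie outside the germ cell sum. A model outside the endothelial sum held 218 against 285 reads over ERG, which fills 41.1% of its span. The part of cell makeup in the ratios of LUM, OGN, ASPN and the model over DCN was not tested.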

How the data were processed

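The authors deposited a raw read count per gene for each library and the FPKM of each gene, which equals the count over listed gene length and a library total. Both cover 26656 genes, 9548 of them assembled by the authors as models without a name. The submitters' processing notes name Bowtie 0.12.2 and the mouse builds mm8 and mm9, although the cells were from chicken. The aligner settings, counter and build used are not given in the sources used here. From 1 µg of total RNA, 1 library was made in each of the 2 groups.

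Ratios, intervals and levels were computed from the counts, and a gene entered the medians with a minimum of 20 reads summed over the libraries. Calls at 2-fold have no test behind them. PCR copies count as separate reads, so intervals and limits hold counting error alone. Calculations were tested on simulated data.

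Members and lists were chosen with earlier results of these data known. Named were all members, the 2 genes with the most reads of each list, genes of the 8 related lists past 2-fold, and models and genes over members. CHAD, TSKU, DSE, COL3A1, DDX4, DAZL, TDRD1, TDRD9, TLL1, CCND3, POSTN and the stroma genes at 0 were named after their values were seen. So were COL5A1, COL6A3, ST3GAL1, B4GALT1, FUT8, B3GNT2, ITGA6, SYCP3, GATA4, WT1, AMH, NR5A1 and ERG, for the models over them. LMOD1, PTCH1, VEGFA, TGFBR1, TGFBR2, TGFB3, WISP1 and ITGB1 were named for models in the same way. CHADL, MYH11, TAGLN, COL9A1, COL10A1, MATN1, CDH5 and VWF were also named after their values were seen. Of 212 symbols in the lists, 175 matched. Alternatives were other scalings, prior counts, filters, folds and FPKM pseudocounts.

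In all, 4 columns headed with other names matched no sample and were not used, nor was the authors' table of fold changes and p-values. Python 3.11.15, scipy 1.17.1, pandas 2.3.3, numpy 2.4.6, matplotlib 3.10.9, R 4.3.3, edgeR 4.0.16 and DESeq2 1.42.0 were used, the R packages for scaling only. Protein sequence features were not analysed here.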

Additional observations from a re-analysis of the deposited data

How the results depend on the processing

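The log2 ratios of LUM, OGN, ASPN, FMOD, OMD, EPYC, KERA and the model over DCN stayed inside their counting intervals under every alternative run for them. For OMD, EPYC and KERA those intervals are so wide that this says little. From FPKM with a pseudocount of 1 the ratio was -0.15 for EPYC and 0.20 for KERA. With a prior count of 5 it was -0.28 for EPYC and 0.67 for KERA. Scaling by TMM, DESeq2 size factors, the upper quartile or totals without the 20 most abundant genes shifted ratios by 0.01, -0.01, 0.03 and 0.00. No paired analysis was possible because Blank and shLSD1 have 1 library each, and no replicate could be left out for the same reason. With no filter on low counts 1 member (KERA) was at least 2-fold higher, and at a fold threshold of 1.5 1 member (ASPN) was higher. The share of reads in the members was 0.0700% in Blank and 0.0655% in shLSD1 without LUM, 0.167% and 0.147% over totals without the 20 most abundant genes, and 0.253% and 0.210% with the model over DCN, each lower in shLSD1. The median log2 ratio of the collagens was 0.24 with upper-quartile scaling, 0.0702 with FPKM and a pseudocount of 1, 0.13 with at least 200 reads and 0.33 with no filter. That of the ligands and receptors was -0.13 with FPKM and a pseudocount of 1, and that of the transcription factors 0.21 with no filter. The median of the other proteoglycans turned from 0.18 to -0.06 with at least 200 reads and was 0.08 with no filter, that of the proteases was -0.18 with at least 200 reads and -0.02 with upper-quartile scaling, that of the chondroitin and dermatan sulphate genes was 0.04 with at least 200 reads, and that of the members ran from -0.17 with at least 200 reads to -0.03 with FPKM and a pseudocount of 1. As TPM (FPKM rescaled to a common sum), LUM stood at 562 in Blank and 453 in shLSD1, OGN at 166 and 145.7, ASPN at 22.3 and 37.2, FMOD at 6.08 and 7.70, and OMD at 0.557 in Blank. Ranked among annotated genes only, ASPN was at place 2482 in Blank, FMOD at 3867 and 3591, and OMD at 6946 and 7196. The median of the keratan sulphate genes is the ratio of CHST2 alone and was not carried through all these alternatives. With at least 200 reads, fewer than 3 genes were left among the other SLRP and leucine-rich repeat genes and among the ligands and receptors. No median was computed for those 2 lists at that depth. Protein features were planned and not run. Depth limits OMD, EPYC, KERA and the model over PRELP, where the intervals reach past 2-fold.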
